A study of Mus musculus with 2 samples.

Results

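Chromatin accessibility was described at 10 genes that neuronal activity is known to induce in forebrain neurons: Arc, Npas4, Nptx2, Ier2, Dusp1, Ptgs2, Rheb, Inhba, Gadd45b and Btg2. They were taken by name from the 21951 protein-coding genes of GENCODE M21. None was picked by its signal, but the list was drawn up with earlier results of these data known. For each gene the window examined was the gene body with 20 kb on each side. DNase-seq maps accessible chromatin by sequencing DNA ends cut by DNase I, which cuts poorly where DNA is wrapped in nucleosomes. It had been applied to hippocampal tissue of female B6CASTF1/J mice aged 2 months, which are F1 hybrids between C57BL/6J and CAST/EiJ, and 1 label narrows the tissue to a layer of the hippocampus. The labels give 1 group with biological replicates 1 and 2, 1 library each, and name no stimulus or treatment. Both replicates carry the same donor record, and whether separate animals were used is not in the labels, so the spread between libraries may be technical.

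Synaptic activity raises calcium in neurons and activates kinases that act on factors already bound to DNA, among them CREB at the cyclic AMP response element (CRE), SRF at the CArG box and MEF2. Rapidly induced genes include those for transcription factors, such as Npas4, and genes called effectors, whose proteins act directly at synapses or in signalling. Accessibility is not expression, so whether these genes were active in the tissue was not measured.

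The sequences below show where protected bases lay in the elements on which the results turn: the Btg2 and Dusp1 promoters for a CRE under a footprint, the Gadd45b promoter as 1 of the strongest, and the strongest distal region of Npas4 beside its own promoter. The Arc distal region is shown for its CArG box. A footprint is a short stretch, inside accessible chromatin, that was cut less than its surroundings, as listed by the authors. Capitals mark bases in footprints of both libraries. Sequences are from RefSeq, build GRCm38.p6, each written 5′ to 3′ on the strand of its gene. The promoters run from 250 bases before to 50 bases after the RefSeq start.
Btg2 promoter, chr1:134079106-134079405, minus strand: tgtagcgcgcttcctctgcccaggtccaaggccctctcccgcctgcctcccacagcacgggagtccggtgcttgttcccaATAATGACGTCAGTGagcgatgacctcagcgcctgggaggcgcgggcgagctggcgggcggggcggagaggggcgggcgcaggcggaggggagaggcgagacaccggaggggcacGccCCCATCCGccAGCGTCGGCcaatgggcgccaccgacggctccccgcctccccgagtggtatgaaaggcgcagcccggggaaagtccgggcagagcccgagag
Dusp1 promoter, chr17:26508423-26508722, minus strand: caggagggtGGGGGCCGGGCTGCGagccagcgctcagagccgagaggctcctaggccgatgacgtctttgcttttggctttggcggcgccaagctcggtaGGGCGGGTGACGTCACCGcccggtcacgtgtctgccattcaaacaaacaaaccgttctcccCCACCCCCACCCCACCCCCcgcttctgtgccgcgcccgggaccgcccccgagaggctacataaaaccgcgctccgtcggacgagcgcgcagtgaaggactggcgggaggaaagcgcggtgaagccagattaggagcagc
Gadd45b promoter, chr10:80929841-80930140, plus strand: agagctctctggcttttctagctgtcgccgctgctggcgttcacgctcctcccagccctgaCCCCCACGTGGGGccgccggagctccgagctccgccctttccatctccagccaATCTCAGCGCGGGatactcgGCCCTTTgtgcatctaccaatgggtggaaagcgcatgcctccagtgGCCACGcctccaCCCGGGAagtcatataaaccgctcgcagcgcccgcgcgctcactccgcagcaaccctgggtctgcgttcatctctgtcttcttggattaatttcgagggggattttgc
Npas4 promoter, chr19:4989922-4990221, minus strand: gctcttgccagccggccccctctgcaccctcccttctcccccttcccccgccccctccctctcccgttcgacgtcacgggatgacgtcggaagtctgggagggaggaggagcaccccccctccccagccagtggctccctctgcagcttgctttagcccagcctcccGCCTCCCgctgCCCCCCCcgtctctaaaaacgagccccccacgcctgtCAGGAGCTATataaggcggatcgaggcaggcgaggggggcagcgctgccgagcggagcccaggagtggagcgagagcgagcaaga
Npas4 distal region, chr19:5001804-5002059, minus strand: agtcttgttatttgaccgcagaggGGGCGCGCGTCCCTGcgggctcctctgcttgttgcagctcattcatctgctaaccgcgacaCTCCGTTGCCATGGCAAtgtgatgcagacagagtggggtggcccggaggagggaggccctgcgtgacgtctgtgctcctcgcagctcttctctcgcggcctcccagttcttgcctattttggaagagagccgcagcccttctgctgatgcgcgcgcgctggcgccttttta
Arc distal region, chr15:74679182-74679301, minus strand: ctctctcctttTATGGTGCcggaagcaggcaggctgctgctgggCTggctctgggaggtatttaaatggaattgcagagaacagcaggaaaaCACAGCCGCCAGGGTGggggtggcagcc

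In the Btg2 promoter the CRE, TGACGTCA, lay whole within a footprint of both libraries, at chr1:134079314-134079321. The same 8 letters at chr17:26508608-26508615 in the Dusp1 promoter also lay under footprints of both libraries. Promoter sequences of 7 of the 10 genes were matched, those of Btg2, Dusp1, Gadd45b, Inhba, Npas4, Ptgs2 and Rheb. The CRE was in 2 of these 7, against 1.79% of all 32851 promoters in the table. Its core, CGTCA, which overlaps every CRE, was in 5 of 7, against 20.8% of all promoters. Both strands were searched, and a match describes letters, not binding. By GC content the Btg2 and Dusp1 promoters exceeded 93.1% and 85.6% of all promoters. The comparison with all promoters was not matched for base composition or accessibility.

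In each library, all 10 genes carried a promoter peak, meaning one that overlaps the 1 kb around a transcription start site (TSS) in either direction. Over all protein-coding genes this share was 60.2%. It was 64.9% for replicate 1 and 61.5% for replicate 2 taken alone. The peak value is the authors' signal, scaled to each library on a scale that is not stated, and a gene's promoter value is its highest. Among genes with a promoter peak the median was 3.07 in replicate 1 and 2.76 in replicate 2. The 10 genes had medians of 4.66 and 2.68, and 4 of them (Rheb, Gadd45b, Btg2 and Arc) were above the median of all genes in both libraries. In bulk tissue, accessibility in fewer cells and lower accessibility per cell cannot be told apart.

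**Figure D1:**
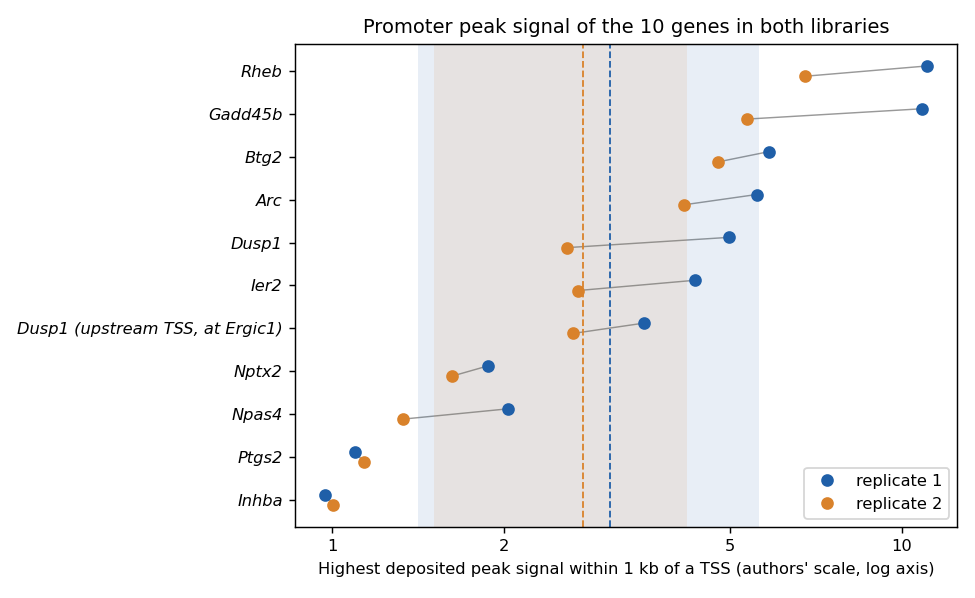
Highest peak signal within 1 kb of a TSS (authors' scale, log axis) for each gene, with 1 point per library joined by a line. Dashed lines and shaded bands give the median and the interquartile range over all genes with a promoter peak, coloured by library. Rheb and Gadd45b are at the top, and Ptgs2 and Inhba lie below both bands.

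Among the regulators of transcription and RNA, Npas4 encodes a basic helix-loop-helix PAS transcription factor. Its promoter value was 2.03 in replicate 1 and 1.33 in replicate 2 (1.68 ± 0.497, SD, n = 2). Both values were below the median, with 35.4% and 20.97% of genes that had a promoter peak lower. Relative to the GENCODE start of its protein-coding transcript, its peaks lay inside the gene, with middles 216 and 396 bp downstream. GENCODE also lists a start of Npas4 at chr19:4989904, and both middles lay upstream of that start. Relative to the RefSeq start the middle was 129 bp upstream in replicate 1 and 51 bp downstream in replicate 2.

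Btg2 encodes an antiproliferative protein that binds the CCR4-NOT deadenylase. Its promoter value was 5.85 and 4.76 (5.30 ± 0.770, SD, n = 2), above 76.6% and 81.9% of genes with a promoter peak. Ier2 encodes a nuclear immediate early protein. Its values were 4.34 and 2.70 (3.52 ± 1.16, SD, n = 2), above the median of all genes in replicate 1 and just under it in replicate 2. A CRE at chr8:84662890-84662897, in the Ier2 promoter peak, was under footprints of both libraries. Gadd45b encodes a stress-response protein linked to active DNA demethylation in neurons. Its value was 10.8 in replicate 1 and 5.36 in replicate 2 (8.10 ± 3.88, SD, n = 2), which gave it the widest spread of the 10 genes.

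Arc and Nptx2 act at the synapse. Arc, which promotes removal of AMPA receptors from the postsynaptic membrane, had promoter values of 5.56 and 4.15 (4.86 ± 1.00, SD, n = 2), above 74.7% and 74.0% of genes with a promoter peak. An EGR match (GCGNGGGCG) at chr15:74672675-74672683 was under footprints of both libraries, inside the peak of replicate 1 and outside the narrower one of replicate 2, chr15:74672601-74672660. Nptx2, a secreted pentraxin that clusters AMPA receptors, had 1.87 and 1.62 (1.75 ± 0.180, SD, n = 2), below the median in both.

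The other 4 genes act in signalling. Rheb, the small GTPase that activates mTORC1, had the highest promoter value, 11.1 in replicate 1 and 6.78 in replicate 2 (8.94 ± 3.05, SD, n = 2), above 96.7% and 96.3% of genes with a promoter peak. Dusp1, a phosphatase that inactivates MAP kinases, had 4.97 and 2.58 (3.77 ± 1.69, SD, n = 2) at its main TSSs. GENCODE M21 extends the gene model of Dusp1 over 56539 bp to starts beside those of Ergic1, where the values were 3.53 and 2.65, and that peak cannot be assigned to either gene. Ptgs2, the inducible cyclooxygenase of prostaglandin synthesis, had 1.10 and 1.14 (1.12 ± 0.0272, SD, n = 2). Inhba, the subunit of activin A, had 0.973 and 1.00 (0.987 ± 0.0199, SD, n = 2), the lowest of the 10. The middles of these peaks were 499 and 577 bp downstream of the start. Replicate 2 alone also had a peak over the start, chr13:16011814-16012000, at 0.908.

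Ordered by mean, the genes ran Rheb, Gadd45b, Btg2, Arc, Dusp1, Ier2, Nptx2, Npas4, Ptgs2 and Inhba. Of the 9 pairs of neighbours, 6 had overlapping values. The 3 that did not were Ier2 over Nptx2, Npas4 over Ptgs2 and Ptgs2 over Inhba. The order was the same in both libraries for 6 genes, and Dusp1 with Ier2 and Npas4 with Nptx2 changed places. Replicate 1 was higher at 8 of 10 promoters, as at 74.1% of the 13218 genes with a promoter peak in both. The exceptions were Ptgs2 and Inhba. For 8 genes the middle of the strongest promoter peak was 28 to 171 bp upstream in both libraries. Distances were taken from the nearest GENCODE TSS of a protein-coding transcript, and the exceptions were Npas4 and Inhba. From the RefSeq starts, used for the printed promoters, the middles were farther upstream at Rheb, 389 and 359 bp, and at Dusp1, 188 and 218 bp.

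The windows held 78 peaks in replicate 1 and 49 in replicate 2, of 129779 and 71895 in all. Peaks that overlapped between libraries merged into 42 shared regions, of which 19 lay within 1 kb of a TSS of the 10 genes, 22 were distal and 1 lay at the promoter of the neighbour Lmnb2. Counting the peaks of a single library instead gave 78 without replicate 2 and 49 without replicate 1. Npas4 had the most shared regions, 8, followed by Gadd45b with 7, Dusp1 with 6, Btg2 with 5 and Arc with 4. Ier2, Rheb and Inhba had 3 each, Ptgs2 had 2 and Nptx2 had 1. The median was 3.5, against 3 over all genes, and 0.0672 per kb of window against 0.0379. Neither comparison was matched for gene length, and the promoter fills more of the window of a short gene.

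**Figure D2:**
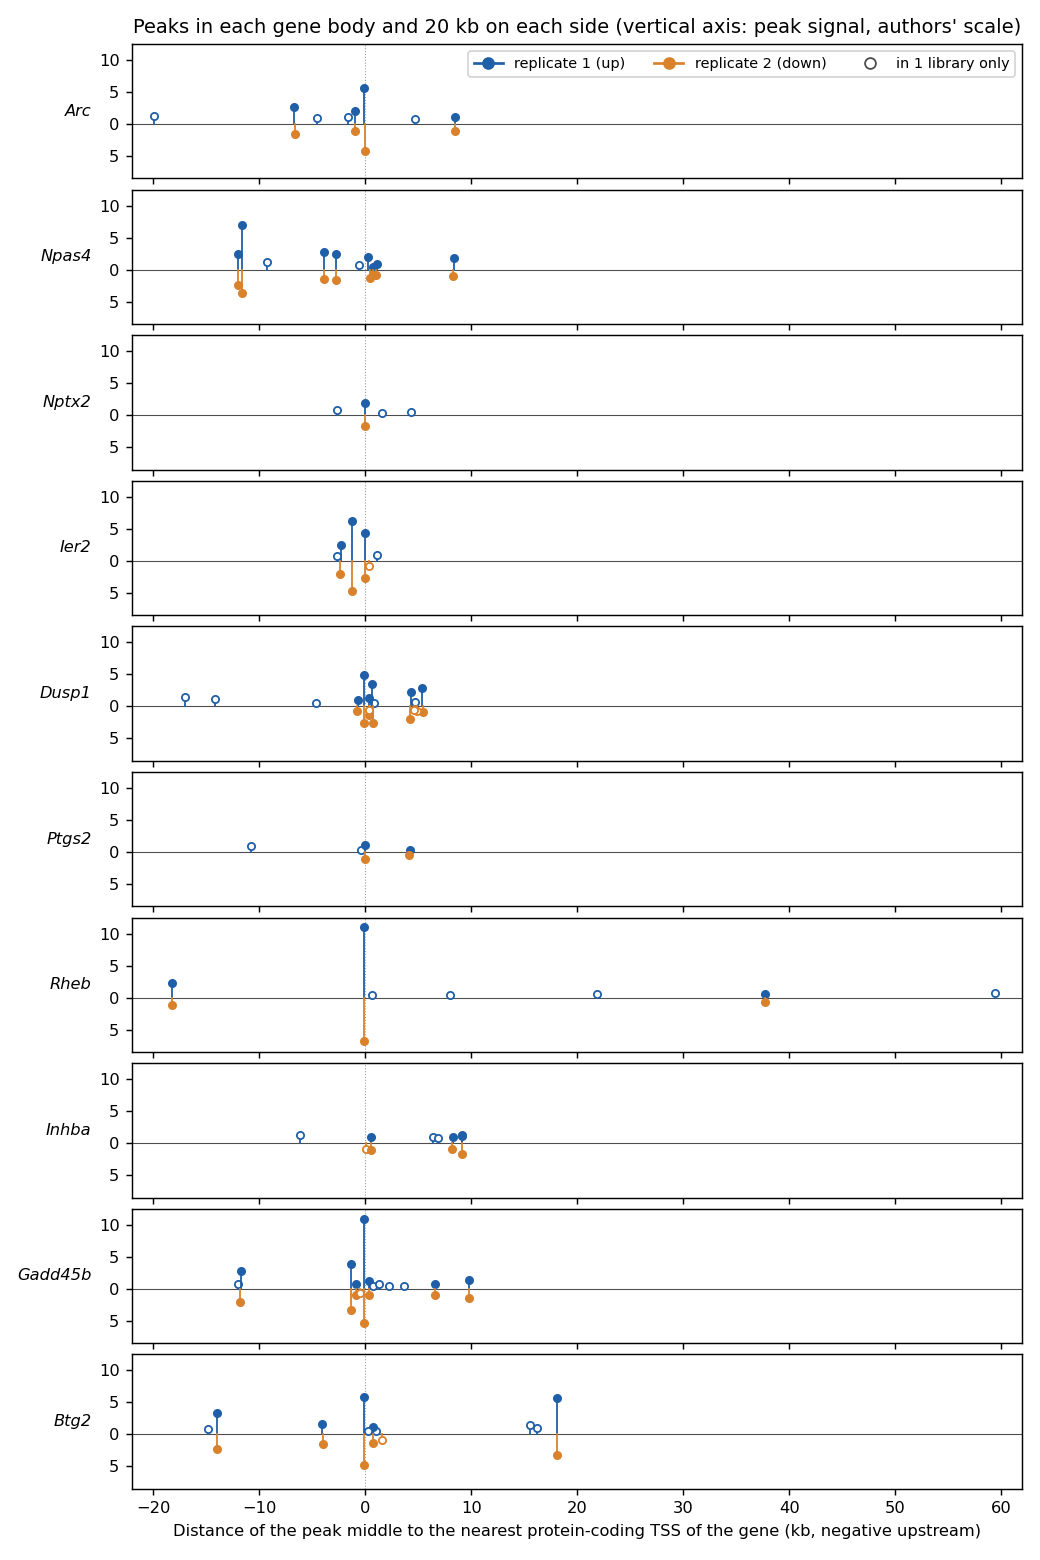
Each peak is drawn at the distance of its middle from the nearest protein-coding TSS of the gene (kb, negative upstream), with its signal upward for replicate 1 and downward for replicate 2 (authors' scale). Filled points overlap a peak of the other library and open points do not; for Dusp1 and Inhba, distances to more than 1 TSS are overlaid. The tallest distal peaks are 11.6 kb upstream of Npas4, 1.23 kb upstream of Ier2 and 18.1 kb downstream of the Btg2 TSS.

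At least 1 shared distal region was found for 9 of the 10 genes, all but Nptx2, against 63.2% of all genes. Within the gene bodies alone, with no flank, it was 3 of 10 (Inhba, Ptgs2 and Rheb) against 33.6% of all genes, a share near the background. Distal regions were split evenly, 11 upstream and 11 downstream of the TSS, and 15 were intergenic. Their median values were 2.35 in replicate 1 and 1.51 in replicate 2. At 3 genes, Npas4, Ier2 and Inhba, the strongest distal region exceeded the promoter in both libraries. With a promoter reach of 2.5 kb, however, Ier2 had no shared distal region. With a reciprocal overlap of 50%, Inhba had none.

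Npas4 had 5 distal regions. The strongest, chr19:5001821-5002080, lay 11.6 kb upstream in intergenic sequence with values of 6.92 and 3.63 (5.27 ± 2.32, SD, n = 2), above the Npas4 promoter in each library. It held 5 footprints in replicate 1 and 3 in replicate 2, whose shared bases are the capitals of the Npas4 distal sequence above. A neighbouring region at chr19:5002201-5002400 had nearly equal values, 2.40 and 2.39.

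At Ier2, the region at chr8:84663961-84664200, 1.23 kb upstream, had values of 6.18 and 4.69 (5.44 ± 1.05, SD, n = 2), and it held a CRE core under footprints of both libraries. At Inhba, an intronic region at chr13:16023361-16023880, 11.8 kb downstream of the TSS with the promoter peak, had 1.28 and 1.63. In replicate 1 this was below the median of the distal regions.

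Btg2 had an intergenic region 18.1 kb downstream of its TSS, chr1:134060901-134061180, with values of 5.64 and 3.21, and another 14.0 kb upstream with 3.40 and 2.34. Gadd45b had a region 1.31 kb upstream, chr10:80928621-80928900, with 3.81 and 3.38. Arc had a region 6.69 kb upstream, chr15:74679141-74679380, with 2.67 and 1.496 (2.08 ± 0.830, SD, n = 2) and 3 footprints in each library. Its CArG box at chr15:74679286-74679295 was overlapped by footprints of both. In the shared regions of the windows, CArG boxes lay within the central 200 bp of 5 of 42, against 0.889% of all 58486 shared regions. Overlap of a CArG box with footprints of both libraries was seen at the Arc region alone among these 5.

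Other motifs were searched in the same central 200 bp of the 42 regions. The CRE was in 2, at Ier2 and Dusp1, or 4.76% against 1.09% of all shared regions. The Btg2 CRE lay inside its shared promoter region, chr1:134079061-134079360, but outside the central 200 bp. The CRE core was in 16 (38.1% against 14.5%). EGR matches were in 6 (14.3% against 3.11%) and matches to a loose NF-kB consensus in 22 (52.4% against 35.7%). AP-1 matches (TGANTCA) were in 4 (9.52% against 7.95%), TATA boxes (TATAAA) in 3 (7.14% against 5.24%) and a MEF2 match in 1 (2.38% against 1.74%), the last at the Rheb promoter. The neuronal E-box CAGATG was in 6 (14.3% against 24.3%) and matches to a loose CTCF consensus in 11 (26.2% against 29.0%). Of the 42 regions 19 are promoters, and the comparison was not matched for base composition.

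In the 7 promoters, EGR matches were in 2 (5.55% of all promoters), NF-kB matches in 6 (50.8%), TATA boxes in 2 (13.6%) and a MEF2 match in 1 (3.19%). This MEF2 match was at Inhba, chr13:16011755-16011764. It lay outside the shared promoter region of Inhba, chr13:16012241-16012541, and under no footprint in either library. The MEF2 match of the Rheb region, chr5:24842769-24842778, lay outside the Rheb promoter sequence searched here, chr5:24842312-24842611. That sequence covers only part of the shared promoter region of Rheb, chr5:24842501-24842940. AP-1, CArG, E-box and CTCF letters were in 0 of 7, against 7.81%, 1.63%, 17.2% and 23.8% of all promoters. These comparisons too were not matched for base composition.

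Dusp1 had a region 5.41 kb downstream of its main TSS with 2.86 in replicate 1 and 0.939 in replicate 2, the lowest ratio between libraries of the 42 regions, 0.329. Rheb had a region 18.3 kb upstream with 2.30 and 1.12. The distal region of Ptgs2, in a coding exon 4.14 kb downstream of the TSS, was the weakest, with 0.371 and 0.516.

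**Figure D3:**
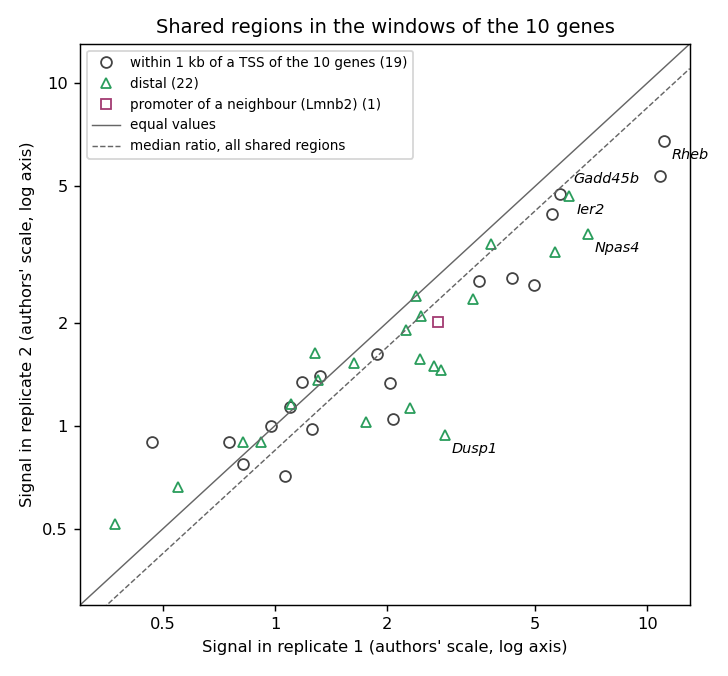
Signal in replicate 2 against replicate 1 (authors' scale, log axes) for the 42 shared regions, 1 symbol per region, by class. The solid line marks equal values and the dashed line the median ratio over all shared regions, 0.847; 30 regions lie below the solid line and 12 above it.

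Over the 42 regions the median ratio of replicate 2 to replicate 1 was 0.797, against 0.847 over all shared regions. The 12 regions that were higher in replicate 2 were weak, with means of at most 1.46. In replicate 1, 35 of the 78 peaks had no overlapping peak in replicate 2, and in replicate 2 the number was 7 of 49. Shared peaks made up 55.1% and 85.7% of the windows' peaks, against 46.6% and 83.4% of all peaks. Peaks found in 1 library had median values of 0.716 and 0.722, below the 2.07 and 1.48 of shared ones. The strongest, 1.54, was in replicate 1 in an intron of the long Dusp1 model. Of the 35 and 7 such peaks, 28 and 4 covered no base listed at an FDR under 0.05 in the other library.

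**Figure D4:**
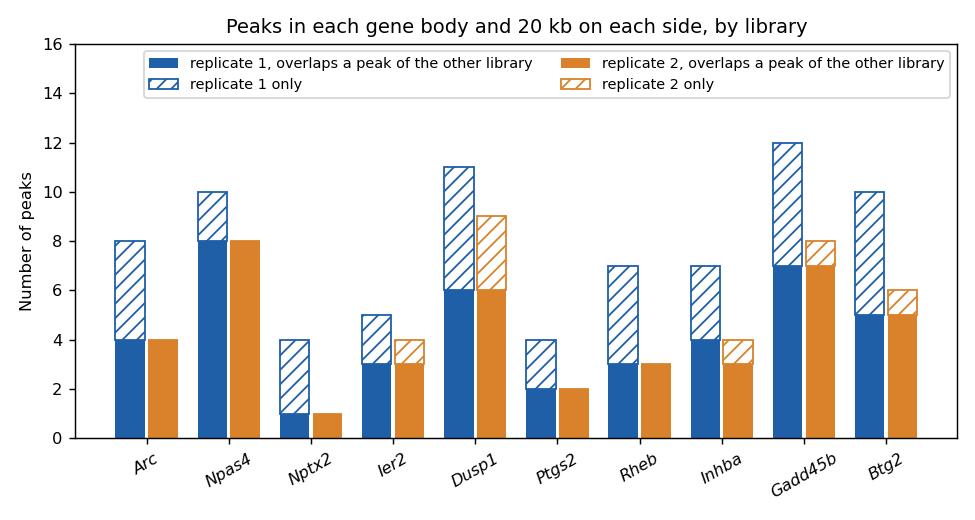
Number of peaks in each window by library; filled bars overlap a peak of the other library and hatched bars do not. Gadd45b and Dusp1 have the most peaks in replicate 1, 12 and 11, and Nptx2 and Ptgs2 the fewest, 4 each.

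The windows held 173 footprints in replicate 1 and 102 in replicate 2. Of these, 34.7% and 62.7% overlapped a footprint of the other library, against 25.8% and 52.0% of all footprints. A footprint was listed for all 10 genes within 1 kb of a TSS in both libraries, against 57.3% of all genes. At Inhba, the 2 footprints of replicate 1 and the 1 of replicate 2 did not overlap, while the other 9 genes had overlapping ones. At Dusp1 14 and 9 footprints lay within 1 kb of a TSS, counting the starts beside Ergic1. At Rheb 9 and 8 footprints lay within 1 kb of the TSS, and at Btg2 9 in each library.

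**Figure D5:**
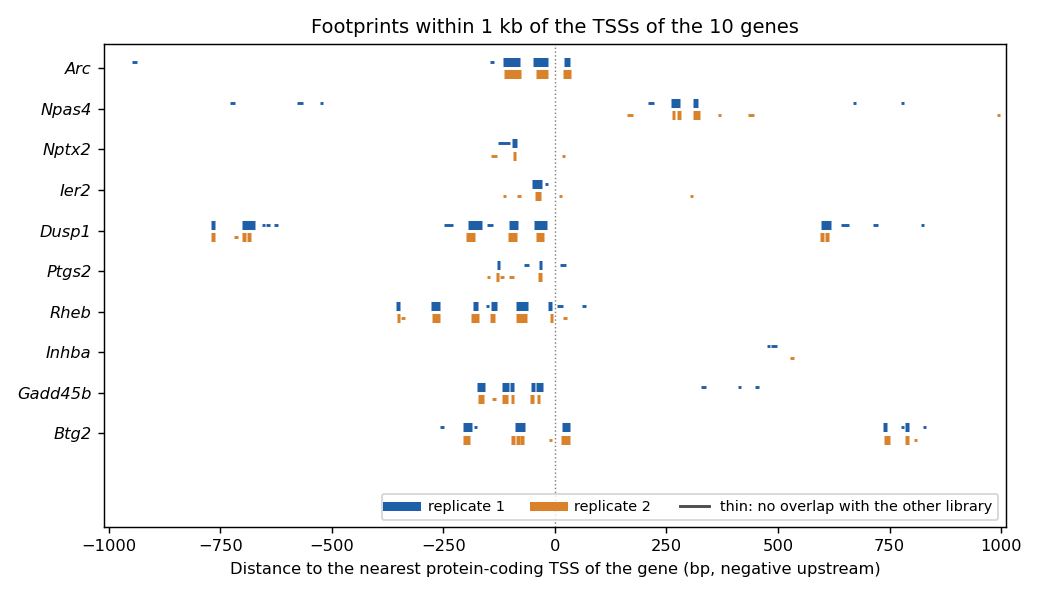
Footprints within 1 kb of a protein-coding TSS (distance in bp, negative upstream), with replicate 1 above replicate 2 for each gene. Thick marks overlap a footprint of the other library and thin marks do not; only at Inhba are all marks thin.

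Among 43 other activity-regulated genes found in the annotation, 42 had promoter peaks in each library and 35 a shared distal region. Over all genes these shares were 60.2% and 63.2%. The highest were Per1, a circadian repressor, with 16.5 and 7.96, and Jun, an AP-1 subunit, with 14.7 and 7.25. Ier3 had a promoter peak in replicate 1 alone, at 0.920. Of 28 paralogs and partners of the 10 genes, 25 had promoter peaks in each library and 23 a shared distal region. The shares over all genes were again 60.2% and 63.2%. Tob1 and Btg1, relatives of Btg2, were highest, with 11.5 and 4.66 for Tob1 and 10.3 and 5.65 for Btg1. Inha and Npas1 lacked a promoter peak in at least 1 library.

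By a distance over the promoter values and window peak counts of both libraries (4 measures on a log2 scale), the genes nearest to Rheb were A930002H24Rik (0.0927) and Hspa4 (0.0933). Klf7 (0.159) and Srf (0.166) were nearest to Gadd45b, and Map2k2 (0.0425) and Arf1 (0.104) to Btg2.

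The tissue label was compared with promoter peaks of cell type markers. All 8 genes listed for glutamatergic neurons had one in both libraries, against 60.2% of all genes. Of these, Rbfox3 and Snap25 mark neurons in general, not glutamatergic ones alone. Promoter peaks in both libraries were also listed for 1 of 3 GABAergic (Gad1), 2 of 3 astrocyte, 1 of 3 oligodendrocyte (Mbp) and 1 of 3 endothelial markers (Pecam1). All 3 microglia markers had a promoter peak in replicate 1, at 0.557 to 0.769, and none in replicate 2. Weak promoter peaks in replicate 1 alone were also listed for oligodendrocyte Mag (0.646) and Mog (0.831) and astrocyte Aqp4 (0.478). Replicate 1 also listed more peaks in all, and the part of cell composition in its higher values at the 10 genes was not tested.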

How the data were processed

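DNase-seq was deposited for 2 libraries of 1 group. Peaks, footprints and per-base FDR lists were made by the authors on mm10, per library and not pooled, per the deposited descriptions; for the aligner and callers, names and versions were not given in the sources used here. Replicate 1 has 129779 peaks in its longer list and replicate 2 has 71895; read depth is not stated. The deposited peak value is a signal whose scale is not stated. Values below 1 were whole multiples of 1 step per library (100% within 0.05 steps), so a ratio between libraries depends on how the values were scaled. The deposited FDR lists, read as q-values, hold bases under 0.05, and every deposited footprint carries 0.01, which was not used. Hybrid reads were placed on the C57BL/6J build; how alleles were treated was not given there either.

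The 10 genes and the lists were chosen with earlier results of these data known. All 10 were named; from each of the lists of activity-regulated genes and of paralogs and partners, the 2 highest promoters and the first 2 in alphabetical order without one in both libraries were named, and the cell type markers are given as counts with examples chosen after their values were seen. Distal peaks lay in the window outside 1 kb of every protein-coding TSS. Overlap meant at least 1 bp. With 2 libraries and no other condition no p-value was computed. Dusp1 is described at its main TSSs; medians over the genes use the highest value at any TSS. Cyr61 was not matched by symbol. Other settings tried were flanks of 0 kb or 50 kb, a promoter reach of 500 bp or 2.5 kb, equal peak numbers, 50% reciprocal overlap, the authors' shorter lists, overlapping footprints, and leaving out each replicate. Counting was tested on simulated data. Software was Python 3.11.15, matplotlib 3.10.9, pandas 2.3.3 and NumPy 2.4.6.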

Additional observations from a re-analysis of the deposited data

How the results depend on the processing

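Of 29 alternative values, 25 stayed within 1.5 times the reported count, but several could not have moved. A gene with a promoter peak or footprint in both libraries keeps it in either library alone and with a reach of 2.5 kb. Genes with a shared distal region likewise keep one in either library alone and with a flank of 50 kb. Counts of genes also cannot exceed 10. The number of shared window regions, 42, was 49 to 78 when each replicate was left out, since peaks of a single library then need no partner. It was 21 with a flank of 0 kb and 75 with a flank of 50 kb, which change the length searched. Genes with a shared distal region went from 9 to 3 with a flank of 0 kb (Inhba, Ptgs2 and Rheb), against 33.6% of all genes. They were 9 without replicate 1 and 10 without replicate 2, against 67% and 81% of all genes. With the shorter peak lists, 9 genes had promoter peaks in each library (Inhba did not) and 7 a shared distal region, against 54.3% and 46.7% of all genes. With a reciprocal overlap of 50%, 8 had a promoter peak in both (Arc and Ptgs2 did not), against 54.7%. At that overlap 7 had a shared distal region (Inhba, Nptx2 and Ptgs2 did not), against 58.7%. A promoter reach of 2.5 kb left 8 with a shared distal region (Ier2 and Nptx2 had none), against 58.5%. Counting only footprints that overlap between libraries left 9 genes, without Inhba, against 51.3%. No paired analysis was possible because the labels give a single group. A peak listed in 1 library is not shown to be absent from the other: 7 of the 35 found in replicate 1 alone covered bases listed at an FDR under 0.05 in replicate 2.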
